A study of Tachysurus vachellii and Tachysurus fulvidraco x Tachysurus vachelli and Tachysurus fulvidraco with 9 samples.

Results

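miR-146a is a microRNA of the innate immune system, and in juvenile catfish liver both of its arms stood higher in the hybrid Huangyou-1 than in either parental species. Its entries are 2 of the 728 distinct mature sequences in the deposited table and 2 of the 278 that passed the filter on low values, a value of 10 or more in at least 3 libraries. They were picked by name, as the 5p arm ccr-miR-146a and the 3p arm ssa-miR-146a-3p_R-1_2ss9GA20CT, after earlier results of these data had shown them above both parents. The hybrid's position is therefore described here and not tested. Small RNA libraries were made from liver of 3 lines of juvenile fish with 3 libraries per line: P. vachelli, P. fulvidraco, and Huangyou-1, the offspring of P. fulvidraco females and P. vachelli males. All 3 lines came from artificial fertilization after hormone injection of the parents, and each was reared in 3 aquaria of 200 fish. No treatment set the lines apart, and the labels do not say whether single fish, whole aquaria or pooled livers were sequenced, so p-values measure only the spread between these libraries.

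A microRNA precursor is a hairpin that is cut into a duplex of a 5p and a 3p strand. One strand is usually loaded into an Argonaute protein and kept, and the other is mostly degraded. The loaded strand finds its targets mainly through its seed, bases 2 to 8 from the 5′ end. In mammals miR-146a is transcribed in response to NF-κB downstream of Toll-like and interleukin-1 receptors. It represses the signalling proteins TRAF6 and IRAK1 of the same pathway, which closes a negative feedback loop. It is abundant in white blood cells and is also made by other cells of the liver.

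The sequences are shown with the seed in capitals, as DNA letters, because the comparison of arms and relatives turns on them. The first pair are the arms of miR-146a, and the others are relatives that share the seed of its 5p arm.
ccr-miR-146a: tGAGAACTgaattccatagatgg
ssa-miR-146a-3p_R-1_2ss9GA20CT: aTCTATGGactcagttcttttg
cgr-miR-146b-5p_R-4: tGAGAACTgaattccatag
dre-miR-146b_R+1: tGAGAACTgaattccaagggtgt

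The 5p arm has 23 bases and the 3p arm 22, and each stands on a single entry. Folded together with RNAduplex, the arms form 18 base pairs, between bases 2 to 21 of the 5p arm and bases 1 to 19 of the 3p arm. All 7 bases of both seeds are paired. The name of the 3p entry records 1 base fewer at the 3′ end and the substitutions G9A and C20T against the salmon reference entry, counted from its 5′ end, and the deposited sequence carries the second letter at both positions. Of the 728 sequences, 4 carry the seed GAGAACT, and 3 of them passed the filter. The seed of the 3p arm, TCTATGG, stands on 1 sequence. dre-miR-146b_R+1, the 5p arm of the paralogue miR-146b, differs from ccr-miR-146a at T17A, A18G, A20G and G23T, counted from the 5′ end of ccr-miR-146a. cgr-miR-146b-5p_R-4 is named after miR-146b, but its 19 bases equal the first 19 of ccr-miR-146a, and it is called the 19-base form below.

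Values are normalized read counts of 1 entry of a sequence in a library, as the authors deposited them. Where a sequence had more than 1 entry, each entry holds only a part of its reads. Each miR-146 sequence has a single entry, so its value is whole. Values of other sequences are not directly comparable in level with each other or with miR-146. The filter on low values also used 1 entry per sequence. Reads assigned to the listed entries were estimated at 5737446 to 8578508 per library, which is not the full sequencing depth. They were 7076459 to 8578508 in P. vachelli, 5737446 to 6469189 in Huangyou-1 and 6336455 to 7421905 in P. fulvidraco. The estimated reads of the 5p arm were 103396 or more in every library. The 3p arm rested on 95 to 318 reads, and the lowest count, in P. vachelli library 1, had an exact 95% Poisson interval of 76.9 to 116. Intervals cover counting error only and treat reads as independent. PCR reads are not independent molecules, so the intervals may be too narrow even for that error.

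The 5p arm is the strand that carries the known targets. Its values were 150379, 143775 and 122669 in the P. vachelli libraries, 213603, 259127 and 266635 in Huangyou-1, and 146243, 153099 and 162939 in P. fulvidraco. All 3 hybrid libraries were high, with library 1 the lowest of them, and the parental libraries overlapped each other. The means were 138941 ± 14474 (SD, n = 3), 246455 ± 28697 and 154094 ± 8393, so that the hybrid mean was 1.77 times that of P. vachelli and 1.60 times that of P. fulvidraco. On the log2 scale of the value plus 1, the hybrid lay 0.83 (SE 0.11) above P. vachelli, 0.67 (SE 0.11) above P. fulvidraco and 0.75 (SE 0.09) above the mid-parent, which is the average of the parental log2 means. Its lowest library was 1.31 times the highest parental one.

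The 5p arm took 1.46% to 1.87% of the deposited total in P. vachelli, 2.19% to 2.45% in P. fulvidraco and 3.43% to 4.06% in Huangyou-1, with 95% Wilson intervals of at most 0.0161 percentage points to either side. With repeated entries of a sequence summed, it ranked 11 to 14 of all sequences in P. vachelli, 8 to 11 in P. fulvidraco and 5 to 7 in Huangyou-1. Its rank was thus higher in every hybrid library than in any parental one.

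**Figure D1:**
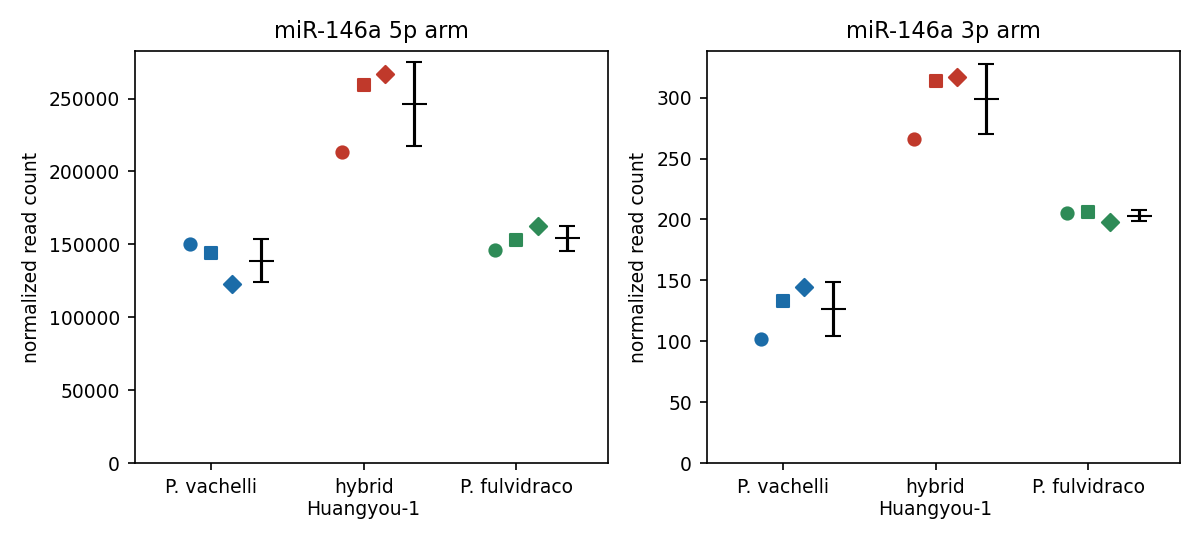
Normalized read count (vertical axis, from 0) of the 5p arm (left) and the 3p arm (right) of miR-146a in each library of the 3 lines. Circles, squares and diamonds are libraries 1, 2 and 3, and bars show the mean ± SD; the hybrid libraries start at 213603 and 266, above every parental library in both panels.

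The 3p arm, the strand that is mostly discarded, was far scarcer. It stood at 102, 133 and 145 in P. vachelli, at 266, 313 and 317 in Huangyou-1, and at 205, 207 and 198 in P. fulvidraco. The 3 groups did not overlap in the 3p arm, as the parents did not for 59.4% of all sequences tested, with P. vachelli lowest and the hybrid highest, and hybrid library 1 was again the lowest of its group. The means were 127 ± 22.0, 299 ± 28.4 and 203 ± 4.84 (SD, n = 3). The hybrid lay 1.24 (SE 0.16) above P. vachelli, 0.55 (SE 0.16) above P. fulvidraco and 0.90 (SE 0.14) above the mid-parent on the log2 scale, and its lowest library was 1.29 times the highest parental one. The rank was 166 to 177 in P. vachelli, 154 to 158 in P. fulvidraco and 148 to 153 in Huangyou-1.

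Both arms had all hybrid libraries above all 6 parental libraries, as had 8 of the 278 sequences tested (2.88%), and since this is what chose the members nothing is read from it. Ordered by the gap between the lowest hybrid and the highest parental library, the 5p arm stood 1 and the 3p arm 2 among these 8, with log2 gaps of 0.39 and 0.36. dre-miR-204-5p followed at 0.32, dre-miR-193b-3p at 0.30 and aca-miR-184-3p at 0.17, and the rest were the 19-base form at 0.063, the leukocyte miRNA dre-miR-142a-3p_R-1 at 0.061 and dre-miR-458-3p at 0.034. Of the 45 tested sequences with a mean value of at least 10000 (1 entry per sequence), 1 had this pattern, the 5p arm. The order and this count rest on the values that chose the members, so nothing is read from them either. Over all sequences tested, the number with the pattern was 19 without hybrid library 1, 26 without hybrid library 3 and 18 with libraries scaled to equal totals. Without hybrid library 1 the gaps of the arms were 0.67 and 0.60.

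**Figure D2:**
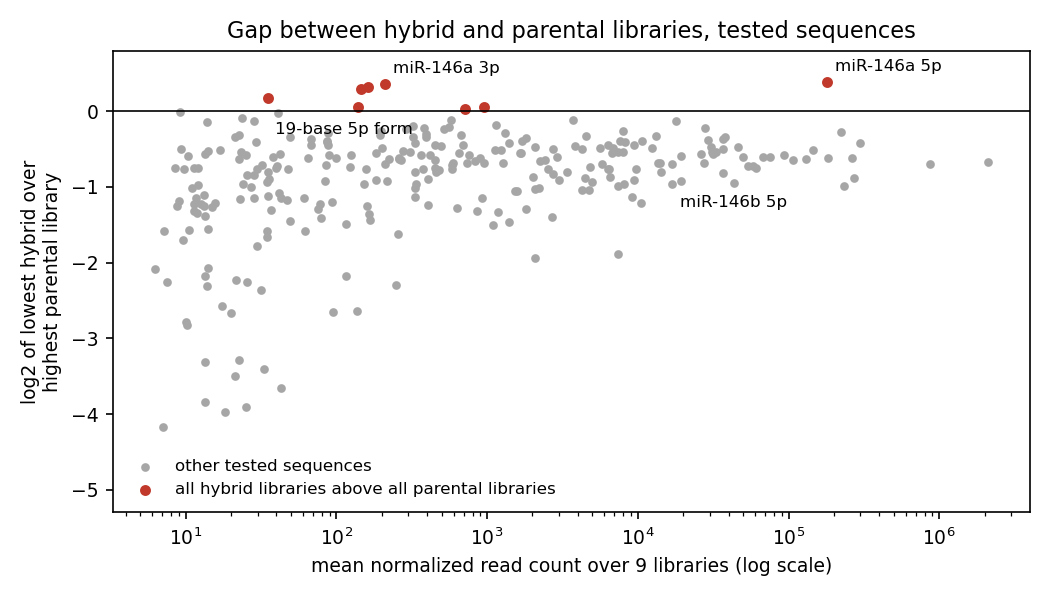
Log2 of the lowest hybrid over the highest parental library (vertical axis) against the mean normalized read count over the 9 libraries (horizontal axis, log scale) for the 278 sequences tested. The 8 red points above the line at 0 have all hybrid libraries above all parental ones; the miR-146a arms reach 0.39 and 0.36, and miR-146b lies below the line.

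The parental species differed in the 3p arm and not detectably in the 5p arm. This comparison was not the one that chose the members, although its results were known. The 3p arm was lower in P. vachelli by all 3 libraries, and the difference passed limma's test (log2 difference P. vachelli minus P. fulvidraco -0.69, SE 0.16, adjusted p = 0.00564 over the 278 sequences). With each library left out in turn the adjusted p ran from 0.00609 to 0.0231. The 5p arm gave -0.15 (SE 0.11, 95% interval -0.39 to 0.09, adjusted p = 0.25 by limma), and its parental libraries overlapped. Thus 1 of 2 arms was called where 51.4% of all sequences tested were (30.9% higher and 20.5% lower in P. vachelli). The result for the 5p arm depends on the scaling. With libraries scaled to equal totals, which moved the median log2 difference of all sequences between the parents from -0.047 to -0.35, the 5p arm was lower in P. vachelli (log2 difference -0.46, adjusted p = 0.00487 by limma).

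The ratio of the arms does not depend on how libraries are scaled. The 5p arm exceeded the 3p arm 1473-fold, 1082-fold and 848-fold in P. vachelli, 803-fold, 827-fold and 841-fold in Huangyou-1, and 712-fold, 741-fold and 824-fold in P. fulvidraco. P. vachelli libraries were all higher than those of the other lines and spread widely, while the hybrid libraries lay close together and overlapped with P. fulvidraco. The mean log2 ratio was 10.11 ± 0.40 (SD, n = 3) in P. vachelli, 9.69 ± 0.03 in Huangyou-1 and 9.57 ± 0.11 in P. fulvidraco. The parents differed by 0.54, higher in 3 of 3 P. vachelli libraries, with p = 0.10 in a two-sided exact permutation test, the smallest that 3 against 3 libraries allow. Leaving out P. vachelli library 1, which had 95 reads of the 3p arm, brought the difference down to 0.34. The hybrid ratio differed from the mid-parent by -0.15 on the log2 scale, less in size than the SD within P. vachelli.

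Among 44 precursors with both arms tested, paired by arm names alone apart from miR-146a, the shift of the arm ratio between hybrid and mid-parent was number 28 in size for miR-146a. The largest shifts were those of miR-125a, at 1.66 on the log2 scale, miR-199a at 1.43 and miR-26a at -1.15, whose scarcer arms had mean values of 48.9, 14.1 and 17.0. The miR-125a pair leaves out sha-miR-125a, whose name gives no arm, at a mean value of 75311 against 7386 for aca-miR-125a-5p. Its shift is therefore not that of all miR-125a reads, and the order covers only sequences paired in this way. The parental ratio of 5p over 3p was number 4 from the top for miR-146a. This order uses the values of 1 entry per sequence, and summing repeated entries could change it. The parental libraries did not overlap in their ratio for 16 of the 44 precursors (36.4%).

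**Figure D3:**
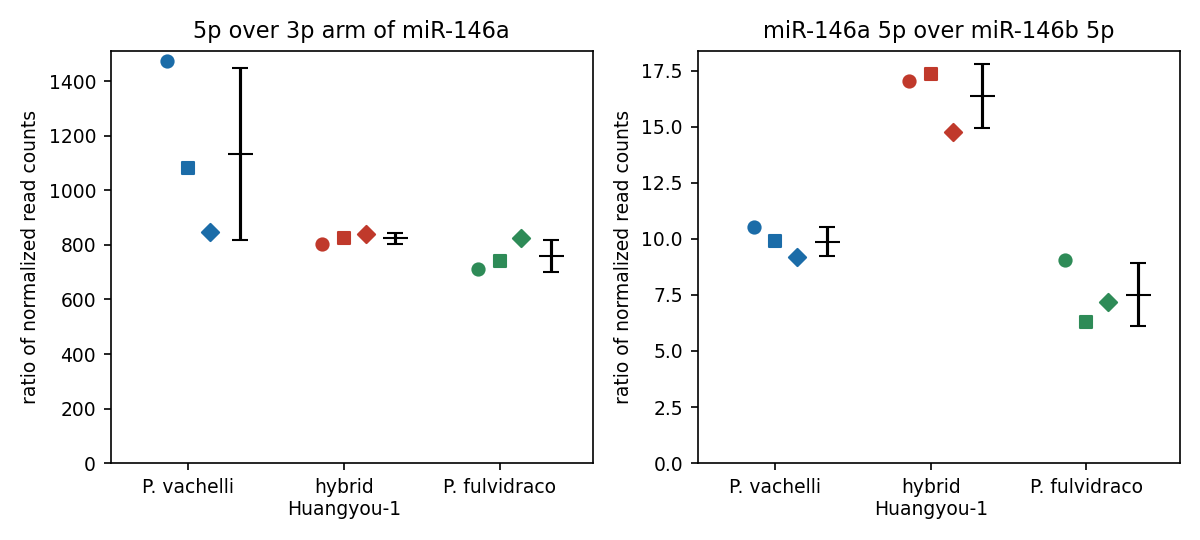
Ratio of normalized read counts (vertical axis, from 0) by library: the 5p over the 3p arm of miR-146a (left) and miR-146a 5p over miR-146b 5p (right). Symbols are libraries 1, 2 and 3 and bars the mean ± SD; the hybrid lies at 803 to 841 on the left, overlapping with P. fulvidraco, and at 14.7 to 17.3 on the right, above all parental libraries.

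miR-146b, the paralogue that shares the seed and so many of the targets, did not follow the pattern of miR-146a. dre-miR-146b_R+1 stood at 14314, 14525 and 13324 in P. vachelli, at 12527, 14950.4 and 18087 in Huangyou-1, and at 16129, 24299 and 22735 in P. fulvidraco. Hybrid library 1 lay below all 6 parental libraries, library 2 between those of the parents and library 3 between P. fulvidraco libraries 1 and 3. P. vachelli was lower than P. fulvidraco (log2 difference -0.56, SE 0.17, adjusted p = 0.0225 by limma), a call lost without P. vachelli library 2 (adjusted p = 0.0516) or 3 (0.0624) or P. fulvidraco library 2 (0.0876) or 3 (0.0759). The hybrid did not differ from P. vachelli past the threshold (log2 difference 0.10, 95% interval -0.29 to 0.49, adjusted p = 0.692 by limma). Against P. fulvidraco the log2 difference was -0.47 (95% interval -0.85 to -0.08, adjusted p = 0.088 by limma), which passed without hybrid library 3 (adjusted p = 0.0477) or P. fulvidraco library 1 (0.0222).

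Within a library, miR-146a 5p exceeded miR-146b 5p by 9.21 to 10.5 times in P. vachelli, 6.30 to 9.07 times in P. fulvidraco and 14.7 to 17.3 times in Huangyou-1. This ratio is free of library scaling, and all hybrid libraries lay above all parental ones. Its numerator is the arm that was chosen as high in the hybrid, so the hybrid's ratio is described only and is no independent evidence. Between the parents the ratio differed by 0.41 on the log2 scale, higher in 3 of 3 P. vachelli libraries (exact permutation p = 0.10, the smallest possible). The 3 tested sequences with the seed summed to 136108 to 164764 in P. vachelli, 226323 to 284924 in Huangyou-1 and 162542 to 185785 in P. fulvidraco, of which miR-146a 5p made up 90.1% to 91.3%, 93.6% to 94.5% and 86.2% to 90.0%.

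The 19-base form may come from the same molecules as the 5p arm, so its hybrid values are also only described. It stood at 70.4, 89.1 and 115 in P. vachelli, at 193, 178 and 202 in Huangyou-1, and at 170, 130 and 110 in P. fulvidraco. The hybrid libraries lay above all parental ones, narrowly so for P. fulvidraco library 1, and the parental libraries met at 115 and 110. The log2 difference between hybrid and mid-parent was 0.79 (SE 0.19). Between the parents it was -0.58 (SE 0.22, adjusted p = 0.0487 by limma), and this marginal call was kept without P. vachelli library 3 or P. fulvidraco library 3 but lost without any other library, with adjusted p up to 0.153. It was also lost with the replicate block (adjusted p = 0.0952 by limma), without the filter on low values (0.0901) and with the parents fitted alone (0.0811).

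**Figure D4:**
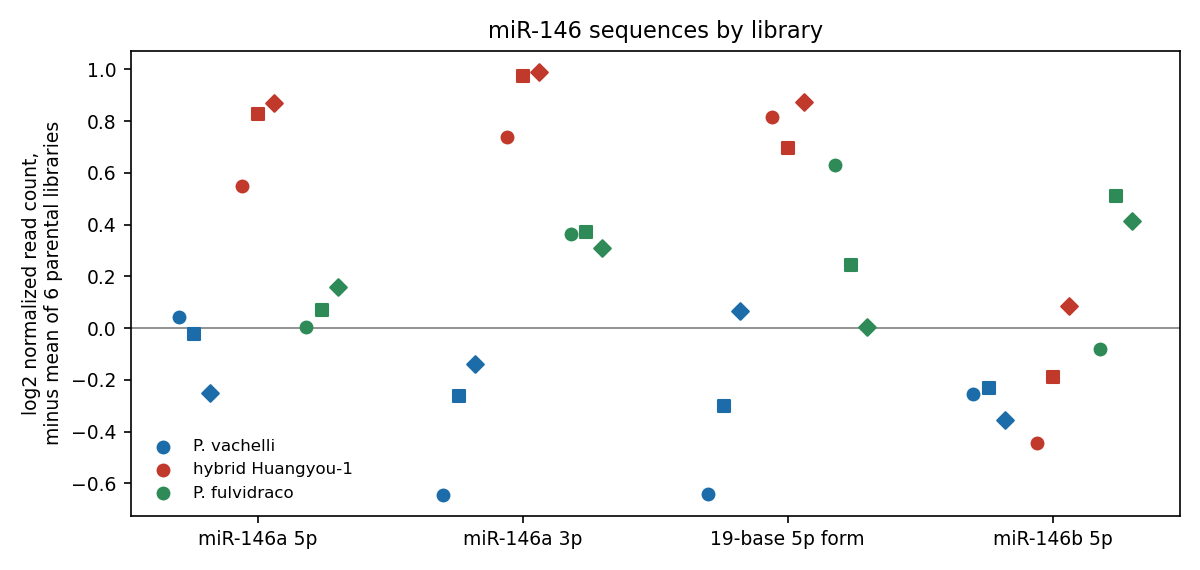
Log2 normalized read count minus the mean of the 6 parental libraries (vertical axis) for the 4 tested miR-146 sequences, by library and line. Hybrid points of both miR-146a arms and of the 19-base form lie above all parental points, while for miR-146b hybrid library 1 lies below them and the other hybrid libraries lie among them.

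The sequences outside miR-146 most like the arms across the 9 libraries were sought by Pearson's r of the log2 values, as a description. The points share libraries and fall into 3 lines, so r mainly reflects the order of the lines. The arms had r = 0.83 with each other. For the 5p arm the highest values were those of dre-miR-142a-3p_R-1 (0.89), dre-miR-193b-3p (0.83), ssa-miR-133a-5p_R+1 (0.78), ssa-miR-730a-3p (0.78) and dre-miR-129-5p_R-1 (0.77). For the 3p arm they were dre-miR-142a-3p_R-1 (0.96), pma-miR-451_R-4_1ss16TC (0.93), dre-miR-142a-5p_L+2R-1 (0.89), dre-miR-730_R-1 (0.88) and dre-miR-135b-5p_R+1 (0.87). Several of these sequences rest on few reads. ssa-miR-133a-5p_R+1 stood at 2.69 to 5.37 in P. vachelli, where 3 reads of a single-entry sequence correspond to values of 2.69 to 3.56. Its value in P. vachelli library 3, 2.97, lies between whole reads, with 1 read there at 1.19. It may thus have more than 1 entry and more reads than its value shows. pma-miR-451_R-4_1ss16TC ran from 4.3 in P. vachelli to 13.9 in the hybrid. miR-146b had r = -0.0070 with the 5p arm.

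miR-142, which is restricted to blood-forming cells in vertebrates, led both orders. Its 3p sequence dre-miR-142a-3p_R-1 stood at 676, 741 and 734 in P. vachelli, at 1055, 1309 and 1240.1 in Huangyou-1, and at 839, 1011 and 943 in P. fulvidraco. As for the arms of miR-146a, all hybrid libraries were above all parental ones. Because it was singled out by its likeness to arms chosen as high in the hybrid, its hybrid differences are no independent evidence. The log2 difference was 0.74 (SE 0.13) from P. vachelli, 0.55 (SE 0.11) from the mid-parent and 0.37 (SE 0.13) from P. fulvidraco, of which the last did not pass limma's test (adjusted p = 0.0774). In bulk liver, a different number of cells of a type and a different amount of the miRNA per cell cannot be told apart.

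Of the leukocyte miRNAs other than miR-146, in the families miR-142, miR-150, miR-155, miR-181, miR-223 and miR-342, 12 of 16 sequences were tested. Against P. vachelli, 2 were higher in Huangyou-1 and 3 lower by limma (41.7%, against 34.9% of all sequences tested, 15.5% higher and 19.4% lower). The higher ones were both arms of miR-142, the 3p sequence described above among them. dre-miR-142a-5p_L+2R-1 stood at 4209 ± 347 against 3015 ± 136 (SD, n = 3, log2 difference 0.48, adjusted p = 0.00635 by limma). It too was among the sequences most like an arm of miR-146a (r = 0.89 with the 3p arm). Its hybrid difference is thus no independent evidence either. The lower ones were miR-181 sequences, known from lymphocyte development: gga-miR-181b-5p_R+1 (log2 difference -0.59), pma-miR-181a-5p (-0.53) and pma-miR-181a-3p (-0.55). With equal totals the split was 4 higher and 0 lower, and without the most abundant miRNA in the totals it was 4 and 2. These scalings moved the median log2 difference over all sequences from -0.0055 to 0.35 and 0.28. Shares called over all sequences were not computed for them, so nothing about the list is read from these splits.

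Against P. fulvidraco, 3 of the 12 were higher in Huangyou-1 and 0 lower by limma, where 12.9% of all sequences tested were higher and 6.47% lower. They were gga-miR-181b-5p_R+1 (log2 difference 0.72, adjusted p = 0.00277), pma-miR-181a-5p (0.60, adjusted p = 0.00416) and cgr-miR-155_R+1 (0.81, adjusted p = 0.0416), an NF-κB-responsive miRNA. miR-155 stood at 255, 342 and 191 in Huangyou-1 against 125, 142 and 174 in P. fulvidraco, and 228, 161 and 163 in P. vachelli. Its hybrid libraries overlapped with those of P. vachelli, and its call was kept only without P. vachelli library 1 or 3 or hybrid library 3, with adjusted p of up to 0.163 when other libraries were left out. By their means the 3 miR-181 sequences named lay between the parents in the hybrid. Between the parents 3 were higher and 2 lower in P. vachelli (41.7%, against 51.4% of all), a count of 3 in all without P. fulvidraco library 3. Against the mid-parent dre-miR-142a-3p_R-1 was the 1 call (8.33%, against 18.7% of all, 10.1% above and 8.63% below). It was 0 calls without hybrid library 2, 2 without P. vachelli library 1, and 3 without hybrid library 3 and with both equal-total scalings. Shares over all sequences were not computed for these alternatives.

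**Figure D5:**
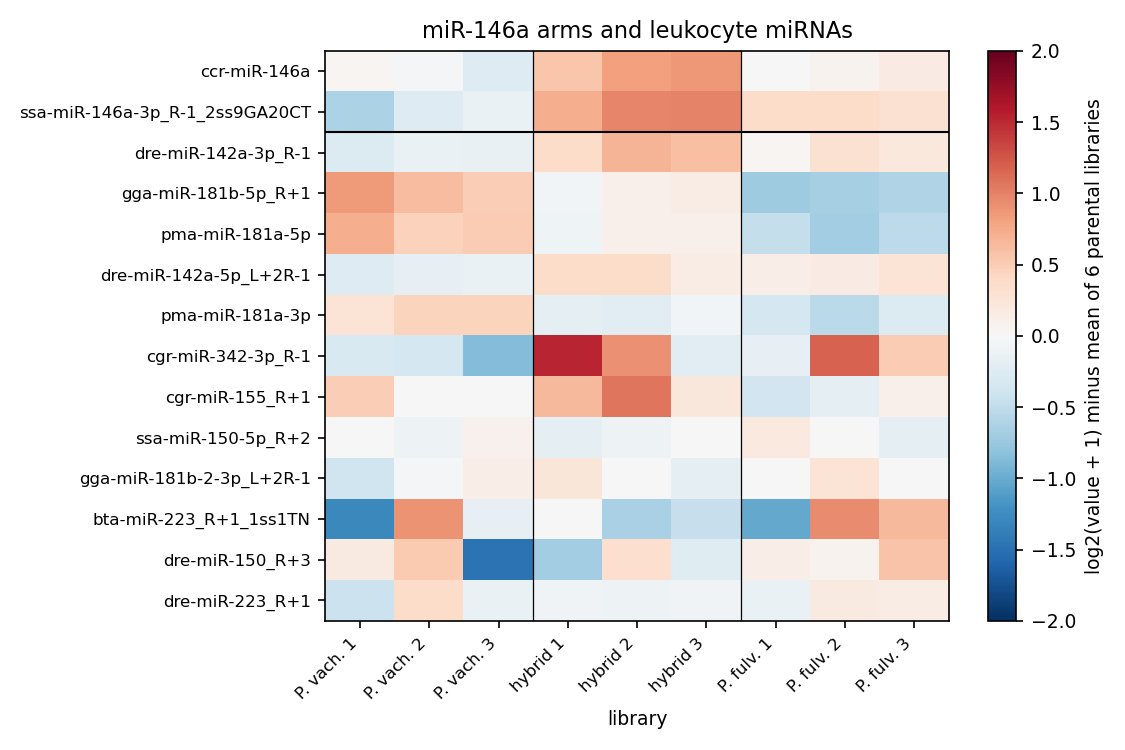
Log2(value + 1) minus the mean of the 6 parental libraries (colour) for the miR-146a arms (above the line) and the 12 tested leukocyte sequences (rows), by library (columns). Red cells in the hybrid columns are seen for both arms, for dre-miR-142a-3p_R-1, dre-miR-142a-5p_L+2R-1 and cgr-miR-155_R+1, and in some hybrid libraries for cgr-miR-342-3p_R-1. The 3 named miR-181 sequences run from red in P. vachelli to blue in P. fulvidraco.

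A second list held miRNAs tied to NF-κB or Toll-like receptor signalling in mammals, in 11 families of which miR-147 had no entry, and 22 of its 34 sequences were tested. Against P. vachelli 1 was higher in the hybrid and 2 lower by limma (13.6%, against 34.9% of all). These were aca-miR-125a-5p, higher at 10489.6 ± 4966 against 626 ± 96.1 (log2 difference 3.95, adjusted p = 0.000263), and the lower ola-miR-210-5p_R+2_1ss20TC (-0.71, adjusted p = 0.000901) and tni-let-7i (-0.44, adjusted p = 0.0136, lost without P. vachelli library 2 at 0.0588). A second miR-125a sequence of the list, sha-miR-125a, had higher values in both lines and was not called. It stood at 79191 ± 11545 in the hybrid against 88993 ± 14235 in P. vachelli (log2 difference -0.17, adjusted p = 0.392 by limma). With equal totals the split was 6 higher and 1 lower, and 5 and 1 without the most abundant miRNA, and without hybrid library 3 the count was 5. The 2 scalings moved the median log2 difference over all sequences from -0.0055 to 0.35 and 0.28. Shares over all sequences were not computed for these alternatives, so nothing about the list is read from these counts.

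Against P. fulvidraco 4 of the 22 were higher in the hybrid and 5 lower (40.9%, against 19.4% of all). The smallest p-values were those of both arms of miR-9, aca-miR-9-1-3p_R+2 (log2 difference -2.04, adjusted p = 0.0046 by limma) and aca-miR-9-5p_R+3 (-1.80, adjusted p = 0.00855), of the abundant fru-miR-21 (0.50, adjusted p = 0.00899) and of ccr-miR-187 (-1.64, adjusted p = 0.0115). For these 4 the hybrid stood near P. vachelli, with fru-miR-21 at 239031 ± 3832 against 259986 ± 25657 and 169646 ± 22600.0 (SD, n = 3) in P. fulvidraco. ccr-miR-187 passed the filter only through P. fulvidraco, at 17.2, 30.63 and 33.25. It stood at 6.45, 4.04 and 8.9 in P. vachelli and at 8.71, 5.91 and 8.67 in the hybrid. Nothing is read from its calls here and between the parents, and its likeness to P. vachelli rests on few reads. The count fell to 5 without hybrid library 2 or P. fulvidraco library 2 and to 3 without P. fulvidraco library 3, and to 5, 1 higher and 4 lower, with the replicate number as a block. Between the parents 4 were higher and 4 lower in P. vachelli (36.4%, against 51.4%), or 2 higher and 6 lower with equal totals. Against the mid-parent 1 lay above and 3 below (18.2%, against 18.7%), 6 and 1 with equal totals, and 1 call was left without hybrid library 2. Equal totals moved the median log2 difference from the mid-parent over all sequences from 0.059 to 0.25. Shares over all sequences were not computed for the alternatives. The median log2 difference between hybrid and mid-parent was 0.0070 in this list and 0.030 in the leukocyte list, against 0.059 over all sequences tested.

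Markers of the cells that a liver sample can hold were summed per library beside these values. The sums are not scaled to the deposited total of a library. That total was 7704357 to 8395612.5 in P. vachelli, 6230587 to 6635109 in Huangyou-1 and 6260802 to 6857288 in P. fulvidraco. A higher sum in P. vachelli is therefore not by itself a higher share of the library. The hepatocyte markers miR-122, miR-192, miR-194 and miR-148, which fit the liver label, were the most abundant of the marker lists. They summed to 2449556 to 2961096 in P. vachelli, 1870343 to 1987123 in Huangyou-1 and 1969191.5 to 2219450 in P. fulvidraco, so that the hybrid and P. fulvidraco overlapped. The leukocyte markers miR-142, miR-150, miR-155 and miR-223 have 10 sequences. By the value of 1 entry, 5 of them were above the floor of 3 reads in every library. The 10 sequences summed to 16615 to 17999 in P. vachelli, 20000.4 to 21001 in Huangyou-1 and 19550 to 20133 in P. fulvidraco. The hybrid and P. fulvidraco overlapped in this sum, and P. vachelli was lower than both. Not all members shared this order. Both miR-142 sequences were lowest in P. vachelli, while ssa-miR-150-5p_R+2 and dre-miR-223_R+1 overlapped among the 3 lines. miR-181 is in the leukocyte list above but not in this sum. Its 3 sequences named above were highest in P. vachelli by their means, and gga-miR-181b-2-3p_L+2R-1 overlapped among the lines. The erythroid markers miR-144 and miR-451 summed to 37915 to 42304 in P. vachelli, 58720.5 to 97610.2 in Huangyou-1 and 78963 to 94637 in P. fulvidraco. The endothelial marker miR-126 summed to 337366 to 398038, 218022 to 249697 and 228046 to 259365 in the same order. The mesenchymal markers miR-143, miR-145, miR-199 and miR-214 were also highest in P. vachelli, at 388418 to 433468 against 304869 to 371073 in the hybrid. The muscle markers miR-1, miR-133, miR-206 and miR-499 were lowest in P. vachelli, at 826 to 884 against 1570.4 to 3416 in the hybrid, and the pancreas markers miR-375, miR-216 and miR-217 overlapped among the lines. The part of these cell types in the levels of miR-146a was not tested.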

How the data were processed

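Small RNA of 9 liver libraries was analysed. Per the labels' protocols, the authors used TruSeq Small RNA kits and a HiSeq instrument and filtered and annotated reads with ACGT101-miR. The deposited signal is a normalized count per library and miRNA entry, per the file headers. The normalization formula is not given in the sources used here, nor are the miRNA reference set and the genome build, so no coordinates are given. Of 888 entries, 160 repeats of a sequence with identical values were dropped. Low values of single-entry sequences fell on multiples of a step (87.3% to 93.7% within 0.1 of a read), taken as 1 read, and totals divided by it gave the estimated reads; 3 reads, the floor, correspond to values of 2.69 to 3.56. Where a sequence had more than 1 entry, its values were fractions of that step, and 89.2% to 98.4% of their low values became whole when multiplied by the number of entries, so ranks, shares and marker sums use summed entries. Whole reads were not recovered for the table, and no count model was used.

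One model covered the 278 sequences and 9 libraries (R 4.3.3, limma 3.58.1 with trend, log2 of value plus 1, a mean per line). Two-sided p-values received the Benjamini-Hochberg adjustment, separately for the 4 comparisons, with a threshold of 0.05, and called means below it. The method was tested on simulated data. Members and lists were chosen with earlier results of these data known. Named were the members, all sequences named miR-146 or sharing a seed, and up to 4 called list sequences per comparison by smallest p. Also named were the 5 highest r per arm outside miR-146 and the 3 largest arm shifts. Sequences with all hybrid libraries above the parents were named too (5 by the rule, the other 3 added after their values were seen). Alternatives covered scaling, pseudocounts of 0.5 and 10, the filter, the replicate number as a block, pairs of lines fitted alone, sums by arm and each library left out. Python 3.11.15, scipy 1.17.1, matplotlib 3.10.9 and ViennaRNA 2.7.2 were used.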

Additional observations from a re-analysis of the deposited data

How the results depend on the processing

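Scaling libraries to equal totals, with and without the most abundant miRNA, was the choice that moved the values of miR-146a. The 5p arm then differed between the parents, by -0.46 and -0.45 on the log2 scale (adjusted p = 0.00487 and 0.00304 by limma). Its hybrid minus P. vachelli difference became 1.17 and 1.11, and that of the 3p arm 1.59 and 1.52. With equal totals the differences from the mid-parent became 0.94 and 1.09. These scalings also gave 7 and 6 calls for the NF-κB list against P. vachelli, and 7 for it against the mid-parent with equal totals. The leukocyte list had 3 and 3 against the mid-parent. Shares over all sequences were not computed for any alternative, so the list counts here have no share to be set against. Replicate numbers showed no clear pairing of libraries (1 of 9 libraries deviated from its group mean most like a library sharing its number). With 3 libraries per line this check cannot exclude a pairing. With the replicate block the NF-κB list had 5 calls against P. fulvidraco. With each library left out, the 5p arm lay 0.74 to 0.93 above P. vachelli, 0.61 to 0.77 above P. fulvidraco and 0.69 to 0.85 above the mid-parent. The 3p arm lay 1.10 to 1.35, 0.51 to 0.63 and 0.82 to 0.98 above them. The parental differences were -0.21 to -0.066 for the 5p and -0.80 to -0.55 for the 3p arm, and the arm ratio differed by 0.34 to 0.74 between parents and by -0.25 to -0.049 between hybrid and mid-parent. Calls of the NF-κB list ran from 6 to 8 between the parents, 2 to 5 against P. vachelli, 3 to 10 against P. fulvidraco and 1 to 5 against the mid-parent. Those of the leukocyte list ran from 3 to 5, 5 to 7, 2 to 3 and 0 to 3. Small differences of miR-146b changed sign: hybrid minus P. vachelli ran from -0.037 without hybrid library 3 to 0.23, and hybrid minus mid-parent was 0.011 with equal totals. The cause of these changes was not tested. Depth limits the 3p arm and the 19-base form most.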

Other observations

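A predicted candidate outside the miR-146 family, PC-3p-124958_6, also carries the seed of miR-146a 5p and did not pass the filter. It was listed at 0 in all 3 P. vachelli libraries. In the hybrid it stood at 11.6, 7.89 and 3.47, and in P. fulvidraco at 7.44, 2.96 and 11.1, values near the floor of 3 reads (2.69 to 3.56). The 3p entry cgr-miR-146b-3p was at 0 in 8 libraries and at 0.99 in P. fulvidraco library 2, the value of about 1 read, while miR-146b 5p reached 12527 or more in every library.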
